A study of Gallus gallus with 2 samples.

Results

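The cells described here are the POU4F-negative BRINP2/CRABP1 cells of the OTX2CRISPR chick retina. A cell was a member when at least 3 of the 7 genes BRINP2, SPIK2, CRABP1, ERBB4, SULF2, DUSP4 and LOC101747932 had a transcript and when none was counted for POU4F1, POU4F2, POU4F3, RBPMS2 and LHX1. Of the 4951 OTX2CRISPR cells with 200 to 3200 detected genes, 875 met this rule, which is 17.7% (95% interval 16.6 to 18.8%). Both groups were retinas of female chick embryos, electroporated at embryonic day 5 and cultured outside the embryo for 48 h, and several retinas were pooled into 1 library per group. The OTX2CRISPR retinas received the p18 plasmid, which carries Cas9 under the broadly active CAG promoter, with guide g2 against OTX2. The CTRL retinas were the opposite eyes and received the same Cas9 plasmid with no guide sequence. Both also received the OTX2ECR2::GFP reporter, in which an enhancer of the OTX2 gene drives green fluorescent protein, and only GFP-positive cells were sorted and sequenced.

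OTX2 is a homeodomain transcription factor that photoreceptors need in order to form. After earlier expression in the forming eye, it is seen in dividing retinal progenitors with a restricted fate. In the chick these progenitors also express OLIG2 and give rise to cones and horizontal cells. The ONECUT factors act in the same progenitors and favour horizontal cells and early cones. PAX6 is a transcription factor of eye progenitors that ganglion, amacrine and horizontal cells keep and photoreceptors lose. The POU4F factors and RBPMS2 mark retinal ganglion cells, whose axons form the optic nerve, and LHX1 marks 1 kind of horizontal cell.

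The measured quantity was the unique molecular identifier (UMI), a tag that counts each captured transcript once. The OTX2CRISPR and CTRL libraries held 13366081 and 15177210 UMIs. Levels are given as CPM, a gene's UMIs added up over all cells of a group and scaled to 1 common total for every group, and log2 ratios compare such levels with the members on top. With 1 library per group no test across animals could be made, intervals are exact 95% intervals that cover counting error only, and every difference describes these libraries. Since the cells were chosen by genes measured in the same cells, their differences from other cells are given as a description. The libraries shared 38 cell barcodes, of which 8 were barcodes of members.

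The rule genes set the members apart by construction. SPIK2 was detected in 87.8% of the members, SULF2, which trims sulfate groups from heparan sulfate, in 70.2% and CRABP1, which binds retinoic acid inside the cell, in 69.3%. BRINP2, a neuronal protein of the BMP and retinoic acid inducible family, was found in 45.9% and LOC101747932, a protein-coding gene without a name, in 44.2%. DUSP4, a phosphatase of MAP kinases, was found in 42.1% and ERBB4, a neuregulin receptor, in 38.3%. BRINP2 was thus found in 402 of the 875 members, and the name BRINP2/CRABP1 describes the group and not each of its cells. The OTX2CRISPR cells with at least 10 UMIs of the cone gene RBP4 had a median depth of 1959 UMIs, against 2474 in the members. In them BRINP2 was found in 2.17%, SULF2 in 4.35%, ERBB4 in 6.52%, CRABP1, DUSP4 and LOC101747932 in 7.61% each and SPIK2 in 15.2%. In CTRL cells chosen by the same RBP4 limit (median depth 2538 UMIs), BRINP2 was found in 0.236%, CRABP1 in 4.11%, SULF2 in 8.51% and SPIK2 in 14.8%. Whether these cone cells made the transcripts or held them as free RNA was not tested.

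The same rule found 25 of 5123 CTRL cells, or 0.488% (0.316 to 0.720%). The median depth was 2570 UMIs in OTX2CRISPR cells and 2789 UMIs in CTRL cells. Under 2000 UMIs, 19.5% of the OTX2CRISPR and 0.205% of the CTRL cells met the rule. From 2000 to under 3000 UMIs the shares were 19.1% and 0.256%, and with 3000 UMIs or more 14.3% and 0.819%. Apart from these shares, the part of depth in the difference was not tested. With the excluded genes left out of the rule, 28.9% of the OTX2CRISPR cells and 1.62% of the CTRL cells had at least 3 rule genes. At least 4 of the 7 genes were detected in 532 members and in 3 of the CTRL cells that met the rule, and no CTRL cell had 6 or 7. The 25 CTRL cells had a median of 3282 UMIs, and 2 of them held a BRINP2 transcript.

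**Figure D1:**
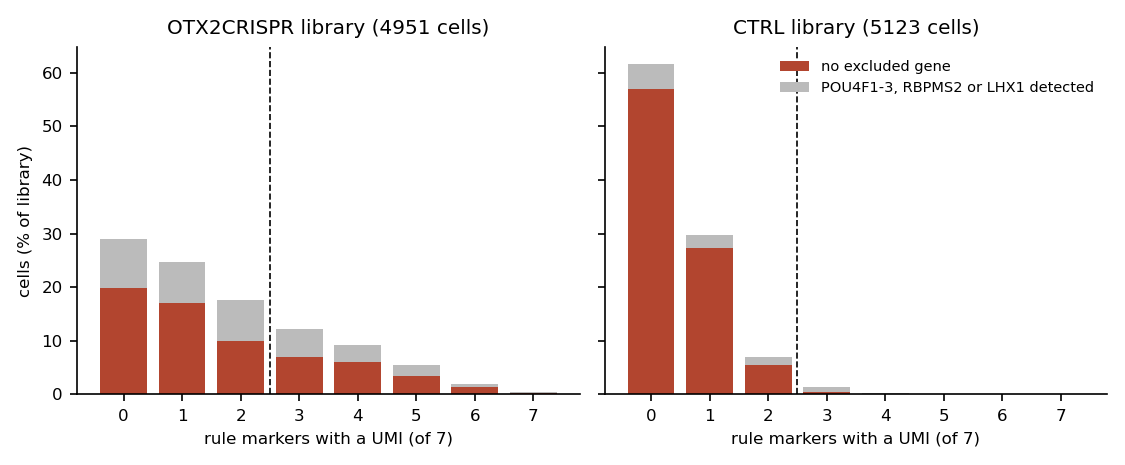
Cells by the number of the 7 rule genes with a UMI (horizontal axis) as a percentage of the cells of the OTX2CRISPR library (left) and the CTRL library (right). Red marks cells with no POU4F1, POU4F2, POU4F3, RBPMS2 or LHX1 transcript, grey cells with at least 1, and the red parts right of the dashed line are the 875 members in OTX2CRISPR and the 25 cells that meet the same rule in CTRL.

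The threshold lies on a slope and not in a gap. The 343 members with 3 rule genes stood at 166 CPM of BRINP2 and 1419 CPM of CRABP1, and the 493 OTX2CRISPR cells with 2 rule genes and no excluded gene at 52.7 CPM and 1064 CPM. Among genes the rule did not use, ONECUT3 was at 416 CPM inside and 286 CPM outside, and PAX6 at 766 CPM inside and 758 CPM outside. HES5, an effector of Notch signalling in progenitors, was at 55.2 CPM inside and 300.1 CPM outside. The cells just outside thus shared the PAX6 level of those just inside and held more of a progenitor gene.

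The absence of the excluded genes varied with depth. Of the 1430 OTX2CRISPR cells with at least 3 rule genes, 555 were set aside for an excluded gene, most often POU4F3 (255 cells) or POU4F2 (210 cells), and less often RBPMS2 (166 cells), LHX1 (154 cells) or POU4F1 (21 cells). An excluded gene was found in 16.9% of such cells under 2000 UMIs, in 31.8% of those from 2000 to under 3000 UMIs and in 58.1% of those with 3000 UMIs or more. The median depth was 2474 UMIs in the members and 3145 UMIs in the cells set aside. OTX2CRISPR cells with at least 2 POU4F UMIs had a median depth of 3344 UMIs, so depth and cell type cannot be told apart here. POU4F-negative means only not detected at this depth, and how many members expressed a POU4F gene below detection was not tested.

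OTX2 transcripts were frequent in the members. OTX2 stood at 1164 CPM in the members, against 672 CPM in the other 4076 OTX2CRISPR cells. To compare shares at 1 depth, 1000 UMIs were drawn from every cell, and 7 members and 87 other cells with fewer UMIs were not used for this. An OTX2 UMI was then found in 53% of the members (49.6 to 56.4%; 70.3% without thinning) and in 30.7% of the other OTX2CRISPR cells (29.3 to 32.1%; 40.9% without thinning). For comparison, the thinned share was 12.7% in OTX2CRISPR cells with at least 2 UMIs of LHX1 (median depth 2215 UMIs). It was 14.1% in those with at least 2 UMIs of POU4F genes (median depth 3344 UMIs). These cells were sorted by the same OTX2 reporter, and whether their OTX2 UMIs were their own or free RNA was not tested. The members thus lay above both the rest of their library and these classes, with intervals that did not overlap. The assay reads the 3' end of transcripts and the guide cuts near the start of the coding sequence, so these UMIs say nothing about whether a transcript was edited or made a protein.

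The reporter transcript was also frequent in the members. The files hold a row for the reporter transcript, GFP_reporter, which was noticed only after the lists had been written. It stood at 1533 CPM in the members, against 432 CPM in the other OTX2CRISPR cells, a log2 ratio of 1.83 (1.76 to 1.89). After thinning, 41.9% of the members and 16.5% of the other OTX2CRISPR cells had a reporter UMI, and 38.8% of the CTRL nondividing OTX2 cells described next. Per UMI the members nonetheless held less of it than those CTRL cells, at 1533 CPM against 3170 CPM.

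The members were set against 231 CTRL cells chosen as newly formed cells of the OTX2 lineage: in G1 by cell cycle score, with at least 2 UMIs of OTX2 and at most 1 of RBP4, a cone gene. Of the 875 members, 430 met this rule themselves. Genes of ganglion, horizontal and amacrine cells and of neurons in general were higher in the members, and genes of restricted progenitors and bipolar cells lower. Among 4251 genes with at least 100 UMIs over both groups, 619 were at least 2-fold higher in the members (14.6%) and 168 at least 2-fold lower (3.95%). The median log2 ratio of all these genes was 0.27, and after that shift was taken out the counts were 403 higher and 262 lower. Multipotent progenitor cells (at least 2 of 4 progenitor markers) of the libraries were set beside this, 434 OTX2CRISPR against 520 CTRL cells. They had 28 of 4683 genes at least 2-fold higher in OTX2CRISPR (0.598%) and 32 lower (0.683%). Guide and library cannot be told apart in these cells either.

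PAX6 and the ONECUT genes were among the transcription factors that were higher. ONECUT3 was at 589 CPM in the members and 9.34 CPM in the CTRL cells, a log2 ratio of 5.98 (4.85 to 7.43). PAX6 was at 821 CPM in the members and 146 CPM in the CTRL cells, a log2 ratio of 2.49. ONECUT1 and ONECUT2 had log2 ratios of 2.32 and 2.52. A thinned ONECUT3 UMI was found in 35.0% of the members and 1.32% of the CTRL cells, and a PAX6 UMI in 50.0% of the members and 9.25% of the CTRL cells. In the CTRL library, cells with at least 2 UMIs of LHX1 had ONECUT3 in 61.9% and PAX6 in 41.0% after thinning (median depth 2768.5 UMIs), so the CTRL library did hold cells with these genes. The ONECUT3 share of the compared CTRL cells was below the 4.31% in CTRL cells with at least 2 POU4F UMIs (median depth 3988.5 UMIs). Whether these few ONECUT3 UMIs were the cells' own or free RNA was not tested.

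Signal and neuron genes followed. SLIT1, a secreted guidance ligand for ROBO receptors, was at 1132 CPM in the members and 31.1 CPM in the CTRL cells, and FGF19, a growth factor of the early retina, at 497 CPM and 12.5 CPM. STMN2, a regulator of microtubules in growing axons, was at 1257 CPM in the members and 66.9 CPM in the CTRL cells. MYT1L, a neuronal transcription factor, was at 154 CPM in the members and 9.34 CPM in the CTRL cells. Of the general neuronal list, 18 of 25 measured genes were at least 2-fold higher and 1 lower, with a median log2 ratio of 1.65. TUBB3, the neuronal beta-tubulin, had a log2 ratio of 1.65 (1.45 to 1.86), and the exception was ELAVL2, an RNA-binding protein, at -1.45.

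The 10 highest ratios in this comparison also included those of ASIC4, a channel of the acid-sensing family, SEZ6L, a neuronal membrane protein, AKAP6, which anchors protein kinase A, LOC107053504, a long noncoding RNA, ATP8B3, a lipid flippase, UNC5A, a netrin receptor, and ZFPM2, a cofactor of GATA factors. Each rested on 1 or 2 UMIs in the CTRL cells. ASIC4 had 611 UMIs in the members and 2 in the CTRL cells, a log2 ratio of 6.45 (4.59 to 9.50), and SEZ6L 387 and 2 UMIs, a log2 ratio of 5.79 (3.93 to 8.84). UNC5A had 111 UMIs in the members and 1 in the CTRL cells, a log2 ratio of 4.99 (2.48 to 10.31). The width of these intervals shows that only the direction, and not the size, was measured well. With no CTRL count at all, PPP1R17, an inhibitor of protein phosphatases, was at least 17.9-fold higher and C1QL4, a secreted synaptic protein, at least 15.9-fold higher, taking 3 counts over the CTRL group as the floor.

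Ganglion and horizontal cell lists were raised in part. Of 13 measured ganglion genes, 9 were at least 2-fold higher and 0 lower, with a median log2 ratio of 1.65, and of 6 measured horizontal genes 4 were higher, with a median of 2.37. EBF3 and EBF1, transcription factors of early ganglion cells, had log2 ratios of 2.53 and 2.73, and NRN1, neuritin of growing neurites, 3.56. The exceptions included ROBO2, a receptor for SLIT ligands, at -0.80, and NHLH1, a bHLH factor of new neurons, at -0.33. The horizontal genes that were higher were the 3 ONECUT genes and NRXN3, a synaptic adhesion protein. TFAP2A, the AP-2 factor of horizontal and amacrine cells, had only 19 UMIs in the members and 3 in the CTRL cells, a log2 ratio of 0.86 (-0.90 to 3.26). The measured horizontal genes thus held the ONECUT genes and NRXN3 on the high side, while TFAP2A was under 100 UMIs.

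Genes of restricted progenitors and bipolar cells stood on the low side. DIO3, which inactivates thyroid hormone, was at 13.8 CPM in the members and 539 CPM in the CTRL cells, 38.9-fold lower. HES5 was at 42.8 CPM in the members and 841 CPM in the CTRL cells, and VSX1, a homeodomain factor that bipolar cells keep, at 511 CPM in the members and 2913 CPM in the CTRL cells. Of 12 measured genes of the restricted progenitor list 10 were at least 2-fold lower, and of 4 bipolar genes 3 were, among them VSX1 and BHLHE22, a bHLH factor of interneurons. Over all genes of this comparison 3.95% were lower. VSX1 was also taken as a marker of restricted progenitors, so the bipolar count does not stand apart from the progenitor genes. The lowest ratios also included SLC4A4, a bicarbonate transporter, NRN1L, a relative of neuritin, the small heat shock protein HSPB9, the T-box factor TBX2, CTNNAL1, a relative of alpha-catenin, and the GTPase MRAS, with log2 ratios between -4.61 and -3.29.

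OLIG2 and DLL4 were closer to the CTRL level. OLIG2 was at 1064 CPM in the members and 2130 CPM in the CTRL cells, 2.002-fold lower, and 53.8% of the members and 69.2% of the CTRL cells kept an OLIG2 UMI after thinning. DLL4, a Notch ligand, had a log2 ratio of 0.09 (-0.24 to 0.43), on the other side of 0 once the median shift is taken out. PRDM1, which holds photoreceptor precursors to their fate, was at 71.8 CPM in the members and 167 CPM in the CTRL cells, while RXRG, a cone nuclear receptor, was at 80.8 CPM and 90.3 CPM and NEUROD1 at 50.4 CPM and 63.8 CPM. For RXRG, with log2 ratios from -0.60 to 0.29, and NEUROD1, from -0.87 to 0.21, a difference was not detectable at this depth.

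Other lists of neuronal function also stood above the median of 0.27. Of 12 measured genes of neurofilaments and axon growth 6 were at least 2-fold higher in the members than in the CTRL cells and 0 lower, with a median of 1.26, among them BASP1, a protein of growth cones, at 2.29 and GAP43, another, at 141 CPM in the members and 24.9 CPM in the CTRL cells. Of 16 axon guidance genes 6 were higher and 0 lower, with a median of 0.49, among them the receptors ROBO1 at 1.93, EPHA3 at 2.29 and SEMA6A at 2.17. The 3 measured relatives of BRINP2 were higher, BRINP1 at 1.80, ASTN1 at 3.97 and ASTN2 at 3.57. Of 7 amacrine and precursor genes 4 were higher, DLX1, DLX2, MEIS2 and BARHL2, and HEY1, a Notch target, was lower at -1.06.

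Eye field and cell cycle exit genes went both ways. PAX6, SIX3 and MEIS2 were at least 2-fold higher in the members than in the CTRL cells, and RAX and RAX2, homeobox genes of eye progenitors and photoreceptors, lower at -2.85 and -3.06. Of 10 genes of cell cycle exit 0 were higher and 4 lower, BTG1 at -2.22, BTG2 at -2.13, the cyclin CCND2 at -2.10 and E2F1, which starts S phase, at -2.88. CDKN1B, an inhibitor of cyclin kinases, was at -0.26 and CDKN1C, another, at 0.43. The BTG genes, CCND2 and E2F1 thus stood lower in the members while these inhibitors stayed within 2-fold.

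**Figure D2:**
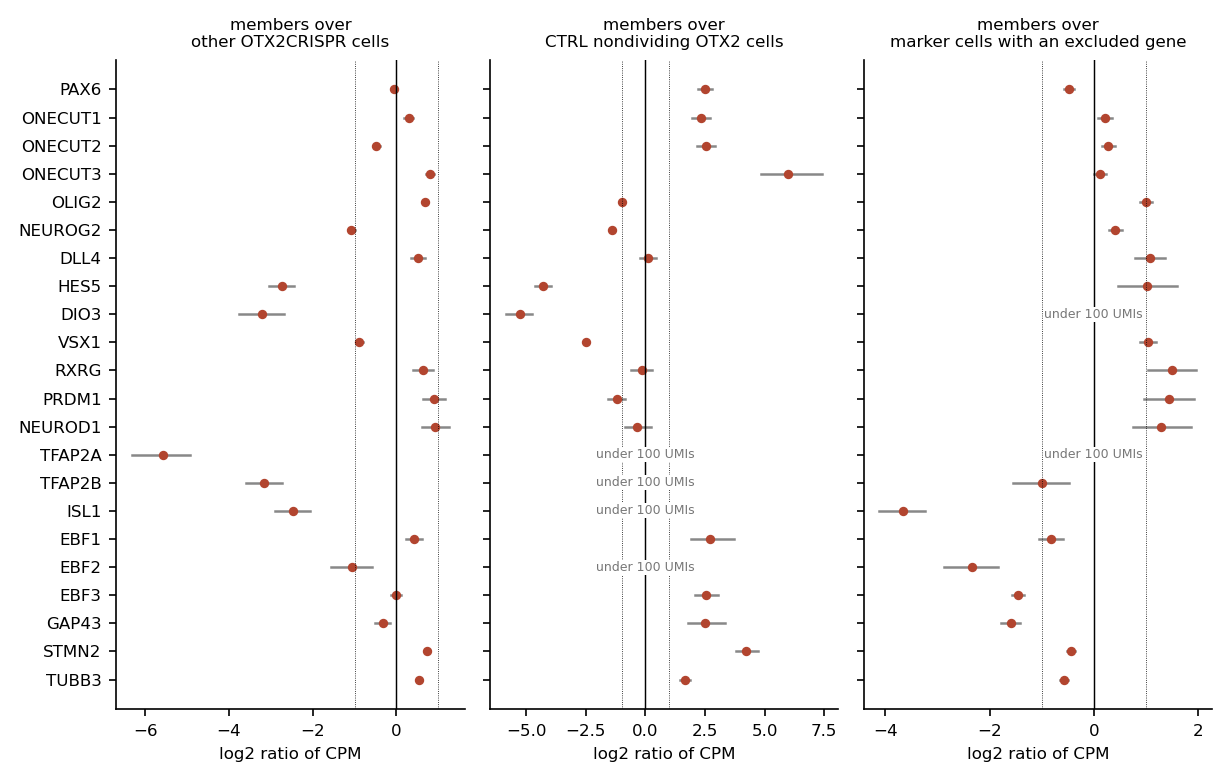
Log2 ratios of CPM (horizontal axis) for selected genes, members over the other OTX2CRISPR cells (left), over CTRL nondividing OTX2 cells (middle) and over OTX2CRISPR cells with the rule genes and an excluded gene (right). Points are ratios, grey lines 95% counting intervals, and dotted lines 2-fold. ONECUT3 lies at 5.98 in the middle panel and HES5 at -4.29, and ISL1 lies at -3.66 in the right panel.

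Some of the same genes differed between the libraries in progenitor cells as well. In multipotent progenitors ONECUT3 was at 47.0 CPM in OTX2CRISPR and 8.19 CPM in CTRL, a log2 ratio of 2.52. SLIT1, STMN2 and FGF19 had log2 ratios of 2.49, 2.34 and 2.19 there, and PAX6, which progenitors do express, 0.97. OTX2 itself had -1.51 and DIO3 -1.30 in these cells. The part of free RNA and of the library as a whole in the ratios between members and CTRL cells was not tested. ONECUT3 was at 589 CPM and STMN2 at 1257 CPM in the members, against 47.0 and 129 CPM in OTX2CRISPR multipotent progenitors, which are cells of another kind.

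The 430 members that met the CTRL rule were also compared alone. Against the 231 CTRL cells they had 347 genes at least 2-fold higher and 135 lower. In them ONECUT3 had a log2 ratio of 5.90, PAX6 2.36, TUBB3 1.63 and HES5 -4.82. OTX2, which both groups were then selected for, had -0.24. The difference in PAX6, ONECUT3 and neuronal genes was thus also present under the same limits of phase, OTX2 and RBP4. The 430 members had been chosen by the rule genes as well, while only 1 of the 231 CTRL cells met the rule for members. Another 601 OTX2CRISPR cells met these limits but not the rule for members, and they were not part of this comparison. These ratios therefore describe the chosen members and not all OTX2CRISPR cells within the limits.

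The members were also compared with the other cells of their own library. Among 8712 genes with at least 100 UMIs, 133 were at least 2-fold higher in the members than in the other 4076 cells (1.53%) and 708 at least 2-fold lower (8.13%), with a median log2 ratio of 0.02. The other cells hold most of the UMIs, so a gene could pass this filter through them alone, and with a mean of at least 40 CPM over the groups as the filter the counts were 65 higher and 146 lower. Restricted to G1 cells on both sides, they were 58 and 235. The other cells held more dividing cells: all 7 measured genes of a check list for division were at least 2-fold lower, with a median of -2.60.

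Genes of neuronal surface and signalling led those that were higher. C1QL4 was at 74.1 CPM in the members and 15.4 CPM in the others, a log2 ratio of 2.27 (1.95 to 2.58), and NDNF, a secreted neurotrophic factor, at 55.8 CPM and 12.1 CPM. RTN4RL1, a relative of the Nogo receptor, PPP1R17 and LOC107050029, a protein-coding gene without a name, had log2 ratios of 2.20, 2.04 and 2.07. LOC101750098, a long noncoding RNA, had 2.19. FAM155A and UNC79, both partners of the sodium leak channel NALCN, had 1.93 each, and ASTN1, a receptor in neuronal migration, 1.91. These genes kept ratios between 1.29 and 1.84 with G1 cells alone.

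Some relatives of the rule genes were raised with them. In the family of BRINP2 and the astrotactins, ASTN1, BRINP1 and ASTN2 had log2 ratios of 1.91, 0.82 and 0.24. Among ligands of the receptor ERBB4, NRG3 was at 232 CPM in the members and 91.4 CPM in the others, NRG4 had a log2 ratio of 0.73 and NRG1 -0.54. GPC6, a heparan sulfate proteoglycan, had 1.63, although 4 of the 11 measured genes around heparan sulfate were at least 2-fold lower. The retinoid list had 0 of 10 genes at least 2-fold higher and 4 lower, with a median of -0.82, and the list of FGF and ERK feedback genes 0 of 13 higher and 5 lower, with a median of -0.05, beside 1.53% higher and 8.13% lower over all genes.

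TFAP2A had the lowest ratio. It was at 8.48 CPM in the members and 405 CPM in the other OTX2CRISPR cells, 47.8-fold lower, and a thinned UMI was found in 0.576% of the members, in 13.7% of the others and in 69.7% of the LHX1 cells. The share in the members was below the 1.43% of cells with POU4F UMIs, and whether these UMIs were their own or free RNA was not tested. TFAP2B had a log2 ratio of -3.15, ISL1, a LIM homeodomain factor, -2.47 and PTF1A, which directs horizontal and amacrine fates, -1.49. SLC32A1, which loads inhibitory transmitters into vesicles, had 2 UMIs in the members and 203 in the others, a log2 ratio of -4.36 (-7.41 to -2.48). Of 11 measured horizontal genes 6 were at least 2-fold lower and 0 higher, while PROX1, a homeobox gene of horizontal cells, was level at 0.05. Of 13 amacrine and precursor genes 7 were lower and 0 higher. Cells with an LHX1 UMI could not be members and all lay among the others, so these low values in part describe the rule's outcome. The other low ratios were those of SLC1A3, a glial glutamate transporter, NETO1, a partner of kainate receptors, BARHL1, CAV3, SALL3, PIF1, SOX3 and BORL1, each with 1 or 2 UMIs in the members and intervals that reach from -10.25 for SLC1A3 to -1.88 for CAV3. BORL1 stood at a log2 ratio of -4.73 (-10.05 to -2.23) and at 0.61 with G1 cells alone.

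OLIG2 and the ONECUT genes varied less within the library. OLIG2 had a log2 ratio of 0.67, ONECUT3 0.80, ONECUT1 0.29 and ONECUT2 -0.48, and PAX6 was level at -0.06 (-0.13 to 0.02). Progenitor genes were lower, with HES5 at -2.74, NEUROG2 at -1.08 and NOTCH1 at -1.75. Of 8 measured cone genes 1 was at least 2-fold higher, CA10 at 1.34, and 2 were lower, RBP4 and EGFLAM, with a median of 0.64. RXRG at 0.63, PRDM1 at 0.90 and NEUROD1 at 0.93 stayed within 2-fold, and RBP4 was at 43.7 CPM in the members and 207 CPM in the others. A thinned RBP4 UMI was found in 2.76% of the members and 4.46% of the others. The general neuronal list had a median log2 ratio of 0.43 with 1 of 26 genes at least 2-fold higher, STMN4, a relative of STMN2, and 1 lower, INA, an intermediate filament protein. In G1 cells alone TUBB3 had a log2 ratio of 0.01, against 0.54 over all phases.

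**Figure D3:**
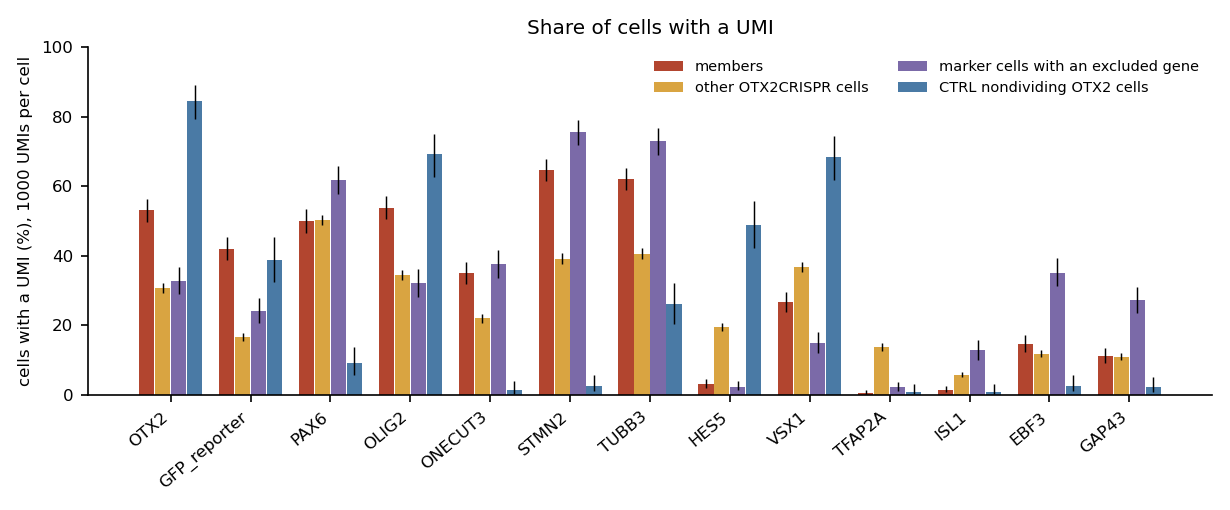
Share of cells with at least 1 UMI of each gene (vertical axis, percent) after each cell was thinned to 1000 UMIs, in the members, the other OTX2CRISPR cells, the OTX2CRISPR cells with the rule genes and an excluded gene, and the CTRL nondividing OTX2 cells. Error bars are 95% Clopper-Pearson intervals. Of the members, 53% had an OTX2 UMI, 50.0% a PAX6 UMI, 64.7% an STMN2 UMI and 0.576% a TFAP2A UMI. Each gene was counted on its own, and detection of several genes in the same cell was not measured.

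The most alike cells were the 555 OTX2CRISPR cells that carried the same rule genes with a POU4F gene, RBPMS2 or LHX1, and the members were compared with them too. Few genes differed, with 40 of 5418 genes at least 2-fold higher in the members (0.738%), 113 at least 2-fold lower (2.09%) and a median log2 ratio of -0.02. Without the LHX1 cells on the other side, the counts were 111 and 151. CRABP1 was at 1980 CPM in the members and 2004 CPM in the compared cells, and ONECUT3 had a log2 ratio of 0.12. Of other genes named above, ASTN1, BRINP1 and C1QL4 had 0.38, 0.03 and 0.40 here. ASTN2 had -1.39, SLIT1 -0.86 and STMN2 -0.43, while NRG3, GPC6 and UNC79 were higher in the members at 1.12, 1.175 and 1.09. High levels of ASTN1, BRINP1, C1QL4, ASTN2, SLIT1 and STMN2 were thus not particular to the members.

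A part of the ganglion cell genes stood on the low side. ISL1 was at 21.9 CPM in the members and 277 CPM in the compared cells, 12.7-fold lower, and EBF2, a further ganglion cell factor, had a log2 ratio of -2.34. EBF3 was at 370 CPM in the members and 1014 CPM in the compared cells, and GAP43 at 141 CPM and 425 CPM. Of 18 measured ganglion genes 10 were at least 2-fold lower and 0 higher, with a median of -1.24. SNCG and RPRML had -2.24 and -1.72, and CNTN2, an adhesion molecule of axons, -1.82. HEY1, a target of Notch, had -2.72. The lowest ratios were those of C3orf70, at -4.00, TUSC5, LZTS1 and EPB41L3, a link between membrane and cytoskeleton, between -3.60 and -3.42. The members were chosen without a POU4F gene, RBPMS2 or LHX1 and the compared cells with one, and their median depths differed as given above, so these values are a description of the rule's outcome.

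OTX2 lineage genes lay on the high side. OTX2 was at 1164 CPM in the members and 600.2 CPM in the compared cells, and 53% of the members and 32.8% of the compared cells had an OTX2 UMI after thinning. OLIG2 was 2.001-fold higher, and VSX1 had a log2 ratio of 1.04, DLL4 1.07 and HES5 1.02. Of 5 measured cone genes 4 were at least 2-fold higher, RXRG, PRDM1, NEUROD1 and RBP4, with log2 ratios of 1.29 for RBP4 and more for the others. RBP4 rested on 98 UMIs in the members and 33 in the compared cells. Thinned to 2000 UMIs, it was found in 3.13% of the members (1.92 to 4.79%) and 1.78% of the compared cells (0.815 to 3.34%). These intervals overlapped, as did those of the RXRG shares, while those of PRDM1 and NEUROD1 did not. EYA1, a transcriptional cofactor in early organ formation, had the highest ratio at 1.72, followed by ADAMTS3, a protease of procollagen, NDNF, COCH, an extracellular matrix protein, and ID2, an inhibitor of bHLH factors, at 1.55 to 1.65. The reporter had 0.94.

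The members were mostly called as G1, a call that cannot tell a cell that left the cycle from one between divisions. By scores of 43 S and 51 G2/M genes, 81.0% of the members were in G1 after thinning (78.2 to 83.5%), against 51.2% of the other OTX2CRISPR cells (49.7 to 52.8%), and 89.4% and 55.8% without thinning. With at most 1 UMI in the sum of 8 dividing genes as the measure, 93.4% of the members were nondividing. The marker cells with an excluded gene were at 85.6% in G1 after thinning. Cell cycle genes were nonetheless not at 0 in the members: TOP2A, which untangles chromosomes, was at 93.7 CPM over all members. It was at 631 CPM in the members scored in S or G2/M and at 25.6 CPM in those in G1. The CTRL nondividing cells, which had all been chosen as G1, stood at 37.4 CPM of TOP2A.

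The 93 members scored in S or G2/M differed from the 782 in G1 beyond the cycle itself. HES5 had a log2 ratio of 2.98 (2.37 to 3.59) in members in S or G2/M over members in G1, VSX1 1.41, NEUROG2 1.35 and DLL1, a Notch ligand, 1.73. On the other side EBF3 had -1.75, the reporter -1.61, SLIT1 -1.10 and STMN2 -1.04. OLIG2 and PAX6 were level, at 0.06 and -0.05. The few dividing members thus held more of the progenitor genes and less of the neuronal genes.

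Among themselves the members differed in the balance of OTX2 lineage genes and ganglion cell genes. The values come from cells of 1 library and are a description. GAP43 was detected in 195 members (median depth 2905 UMIs) and not in 680 (2366.5 UMIs), and the part of this depth gap in the ratios was not tested. In members with GAP43, over those without, EBF3 had a log2 ratio of 1.99 (1.79 to 2.19), RPRML 1.46, SLIT1 1.27, ONECUT3 0.87 and PAX6 0.52. OTX2 had -1.18 (-1.35 to -1.02), VSX1 -1.40, PRDM1 -1.71, NEUROD4 -1.12 and OLIG2 -0.59. CRABP1, a rule gene, went with GAP43 at 1.22, while SPIK2 and SULF2 were level at 0.03 and 0.05. The reporter had -0.38 (-0.50 to -0.26).

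The members were next split by ONECUT3. It was detected in 508 members (median depth 2623.5 UMIs) and not in 367 (2264 UMIs), and those with it over those without had RPRML at 2.06, CRABP1 at 1.81, EBF3 at 1.59 and GAP43 at 1.38. RXRG had -1.41 (-1.87 to -0.97), PRDM1 -1.32, NEUROD4 -1.01 and OTX2 -0.79 (-0.90 to -0.68). ONECUT1 and ONECUT2 followed ONECUT3, each at 0.91. The reporter was higher in members with ONECUT3, at 0.96 (0.85 to 1.07), and lower in members with GAP43, so the splits differed in it. Members with ONECUT3 thus had less of the cone precursor genes, and ERBB4, another rule gene, was slightly lower in them at -0.43.

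An OTX2 UMI was found in 615 members (median depth 2437 UMIs) and not in 260 (2609.5 UMIs). Over members without OTX2, those with it had NEUROD4 at 0.93, NEUROD1 at 0.86, RXRG at 0.77, PRDM1 at 0.71 and OLIG2 at 0.41. CRABP1 had -1.20 (-1.28 to -1.11), RPRML -1.26, EBF3 -0.96 and GAP43 -0.83, and BRINP2 0.12 (-0.10 to 0.34). In members with GAP43 BRINP2 had 0.50 (0.29 to 0.71), and in members with ONECUT3 0.72 (0.50 to 0.94), on the side of CRABP1. Both are rule genes, so how they go together in these splits depends in part on the rule.

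**Figure D4:**
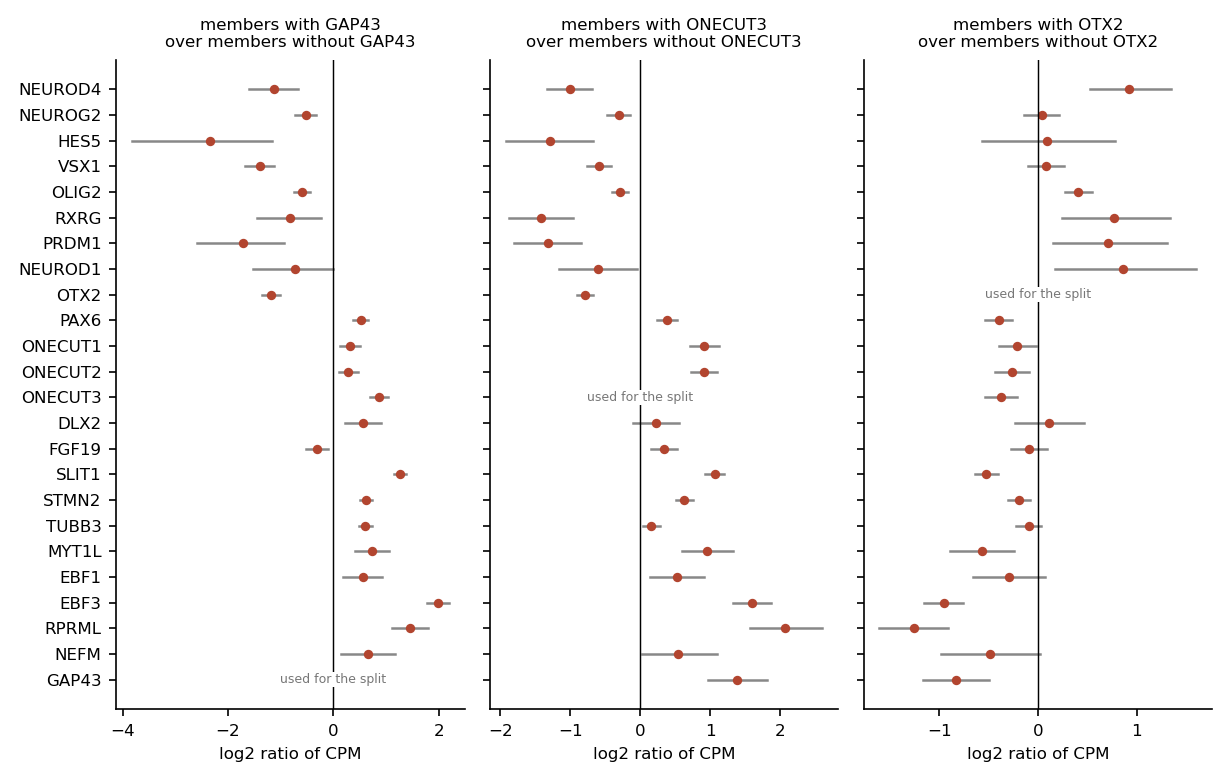
Log2 ratios of CPM (horizontal axis) between members with and without a UMI of GAP43 (left), ONECUT3 (middle) and OTX2 (right), with 95% counting intervals as grey lines. EBF3 lies at 1.99, 1.59 and -0.96 and PRDM1 at -1.71, -1.32 and 0.71, with the opposite sign in the right panel.

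OLIG2 and the DLX genes cut across the members in other ways. In the 657 members with OLIG2 over the 218 without, NEUROD4 and HES5 both had 2.20, UBE2C, a gene of mitosis, 1.71, BTG2, an antiproliferative gene of the last division, 1.05 and the reporter 1.04. CRABP1 had -1.03, RPRML -0.91 and EBF3 -0.89. The 232 members with DLX1 or DLX2, homeobox genes of ganglion and amacrine precursors, were set against the 643 without. RBP4 was at 3.02 CPM and 60.8 CPM, a log2 ratio of -4.33 (-7.40 to -2.44) whose size was not measured well. RXRG had -2.01 and PRDM1 -1.12. There EBF1 and GAP43 had 0.48 and 0.56, and EBF3 -0.33 (-0.57 to -0.10). The EBF genes thus took different sides in the DLX split. The part of depth in the OLIG2 and DLX splits was not tested.

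Levels also changed with the number of rule genes. ONECUT3 was at 416, 572, 775 and 897 CPM in members with 3, 4, 5 and 6 to 7 rule genes, and OTX2 at 1379, 1105, 1052 and 802 CPM. VSX1 was at 667, 435, 466 and 290.0 CPM and PRDM1 at 102, 71.0, 39.2 and 31.7 CPM. RBP4 was at 82.2 CPM in members with 3 rule genes and at 9.06 CPM in those with 6 to 7. The log2 ratio of the latter over the former had a wide interval, at -3.18 (-6.26 to -1.27). The median depth was 2263, 2466, 2644 and 2757 UMIs in the same order, and its part in these trends was not tested. Members with more rule genes thus held more ONECUT3 and less OTX2, VSX1 and PRDM1. In members with 6 to 7 rule genes over those with 3, RXRG had a log2 ratio of -0.35 (-1.30 to 0.49) and NEUROD1 -0.49 (-1.64 to 0.50), differences that were not detectable at this depth.

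Few markers of other cells passed the UMI filter, and few genes of the stress lists passed 2-fold. No gene of the erythroid list passed 100 UMIs in any of the 3 comparisons. In the comparison with the other OTX2CRISPR cells, 1 of 9 pigment epithelium genes, PMEL, passed, at a log2 ratio of 0.31, and 2 of 12 glial or microglial genes, GLUL at -0.08 and SLC1A3 with 1 UMI in the members. Over all genes of this comparison, 1.53% were at least 2-fold higher and 8.13% lower, with a median of 0.02. The p53 targets had a median of 0.24 with 0 of 12 genes past 2-fold in either direction, CDKN1A among them at 0.26 (0.14 to 0.37). The list of dissociation stress had a median of 0.04 with 1 of 10 genes lower, FOS, at -1.36. With lists this short, such counts are close to the share over all genes. Against the CTRL cells these lists had medians of 0.11 and 0.07, beside 0.27 over all genes, and BTG2 and the heat shock gene HSPA2, at -3.25, were lower.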

How the data were processed

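Single cell libraries of sorted chick retinal cells, 1 OTX2CRISPR and 1 CTRL, were made on the 10X Chromium platform. The authors aligned the reads to GRCg6a and deposited UMI counts of 23967 genes per cell barcode without normalization, written by version 3.0.2 of the 10X software per the file headers. Barcodes had already been called as cells, so empty droplets were not used here.

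From these counts, cells with 200 to 3200 detected genes were kept, and members, levels, shares and phases were computed in Python 3.11.15 with numpy 2.4.6, pandas 2.3.3, scipy 1.17.1 and, for phases and doublets, scanpy 1.11.5. Shares and phases used cells thinned to 1000 UMIs. Nondividing meant a G1 call. Intervals at the 95% level were exact (Poisson for levels, Clopper-Pearson for shares and, for a ratio, binomial given the sum of both counts), without any error between retinas. A gene was measured in a comparison with at least 100 UMIs over both groups, genes of the rule were left out, and called at 2-fold. For a group at 0 a floor of 3 counts was used.

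The genes named are the 12 rule genes, OTX2, RBP4, PAX6, OLIG2, TUBB3, ONECUT3, the 10 highest and 10 lowest ratios against the CTRL cells and against other OTX2CRISPR cells, the 5 highest and 5 lowest against marker cells with an excluded gene, and members of gene lists by cell type and function, some of which are not reported here. The members and lists were chosen with earlier results of these data known. Symbols are those of the files, and gene types of unnamed loci come from RefSeq. Scrublet marked 8 OTX2CRISPR and 9 CTRL cells as doublets, a number so low that its calls were not used and every cell stayed in. In an alternative, the 4% of cells that scored highest were dropped. The computation of ratios was tested on simulated data. Other alternatives varied the number of markers, the thinning, the scaling, the UMI filter and the phase of the cells. Filters on mean level, the members that met the CTRL rule or were in G1, and compared cells without LHX1 were chosen after the data had been seen. No sequences are shown.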

Additional observations from a re-analysis of the deposited data

How the results depend on the processing

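With other forms of the rule the number of members was 1368 (at least 2 rule genes), 532 (at least 4), 336 (2 UMIs per rule gene), 548 (cells thinned to 1000 UMIs) and 1430 (no excluded genes), beside 875. In the same settings 303, 3, 0, 1 and 83 CTRL cells met the rule, beside 25, and 8 did with SPIK2 taken out of the rule, 10 with CRABP1, 15 with ERBB4 and 13 with SULF2 taken out. Against the other OTX2CRISPR cells, the counts of genes at least 2-fold higher and lower were 340 and 1436 with at least 20 UMIs, 52 and 214 with at least 500 UMIs, 65 and 146 with a mean of at least 40 CPM, and 58 and 235 with G1 cells on both sides. They were 200 and 812 with at least 4 rule genes and 99 and 399 thinned. Against the CTRL cells they were 1509 and 516 with at least 20 UMIs, 114 and 35 with at least 500 UMIs, 303 and 74 thinned, and 403 and 262 scaled by the median of gene ratios, and 347 and 135 in members that met the CTRL rule. Against marker cells with an excluded gene they were 232 and 348 with at least 20 UMIs, 10 and 26 with at least 500 UMIs, and 20 and 43 thinned, and 111 and 151 without LHX1 cells. These settings change how many genes or cells enter; beyond that the cause was not tested. The share of members with OTX2 was 70.3% without thinning and 65.1% at 2000 UMIs, and the share in G1 was 89.4%, 88.6% at 2000 UMIs and 93.4% by UMIs of dividing genes. Of 681 recomputed ratios of named genes 680 kept their direction and 588 stayed within their interval. The exception, BORL1 against other OTX2CRISPR cells, was 0.61 with G1 cells alone and rested on 1 UMI in the members.

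No paired analysis was possible because each condition is 1 library and the labels carry no replicate numbers. With 1 library per condition, the effect of the guide, the retinas and the library cannot be told apart, and genes under 100 UMIs were not compared.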
